A study of Mus musculus with 6 samples.

Results

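Regulatory T cells are CD4 T cells that restrain immune responses. The 8 genes described here are ones by which such cells are commonly recognised, and they were measured in single cells of the fibrotic mouse lung. They are Foxp3, Il2ra, Ikzf2, Tnfrsf4, Tnfrsf18, Tnfrsf9, Il10 and Izumo1r. The genes were chosen by symbol, as 8 of the 32285 genes in the count files, and each had UMIs (unique molecular identifiers, counts of captured transcripts) in every library. The 6 libraries came from the right lungs of 6 male hCTLA4 mice of 12 weeks, 1 library per mouse, made with the 10x Genomics 3' chemistry. In the hCTLA4 line the mouse Ctla4 locus carries human CTLA4 sequence, so that the human antibody can bind. All 6 mice had been given bleomycin into the airway to induce fibrosis, 2 doses of 1.25 U/kg separated by 2 weeks. From day 21 after the second dose, the 3 mice of the control group received an IgG1 isotype antibody and the 3 others ipilimumab, an antibody against CTLA4, at 5 mg/kg, injected into the peritoneum 2 times a week over 4.5 weeks. Mice without bleomycin were not part of these data, so each comparison of treatments is one within fibrotic lung.

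FOXP3 is the transcription factor that sets the regulatory T cell programme, and Ikzf2 encodes Helios, an Ikaros family factor found in many of these cells. Il2ra encodes CD25, the chain that gives the interleukin-2 receptor its high affinity, and regulatory T cells depend on interleukin-2 through STAT5. Tnfrsf4, Tnfrsf18 and Tnfrsf9 encode OX40, GITR and 4-1BB, costimulatory receptors of the TNF receptor superfamily that signal through TRAF proteins to NF-kB. Il10 encodes a cytokine that dampens inflammation, and Izumo1r encodes folate receptor 4, a surface protein of regulatory T cells and some other CD4 T cells. Of these genes, Ikzf2, Il2ra, Tnfrsf18 and Tnfrsf9 are also known from other lymphocytes, and Il10 from myeloid cells.

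In the GRCm38 assembly, Foxp3 (ENSMUSG00000039521) lies at chrX:7573644-7595245 on the plus strand, Ikzf2 (ENSMUSG00000025997) at chr1:69531214-69687245 on the minus strand, Il2ra (ENSMUSG00000026770) at chr2:11642807-11693193 on the plus strand and Il10 (ENSMUSG00000016529) at chr1:131019845-131024974 on the plus strand. Izumo1r (ENSMUSG00000031933) lies at chr9:14885814-14903949 on the minus strand. The 3 receptor genes share chromosome 4, where Tnfrsf9 (ENSMUSG00000028965) spans chr4:150914562-150946102, Tnfrsf4 (ENSMUSG00000029075) chr4:156013843-156016612 and Tnfrsf18 (ENSMUSG00000041954) chr4:156026164-156028895, each on the plus strand. Tnfrsf18 starts 9552 bp beyond the end of Tnfrsf4. All are protein-coding genes.

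Because the members were detected together in the same cells, as described further on, the promoters of 3 of them are shown. RefSeq promoter windows of GRCm38.p6, from 250 bases before to 50 bases after a start site, matched 6 of the 8 genes. The 5 motifs were searched on both strands, and a match is a run of letters and not a bound site. The motifs were forkhead (TGTTTAC, in 3.65% of 32851 mouse promoter windows), NF-kB (GGG and TTTCC with any 2 bases between them, 1.63%), STAT (TTCNNNGAA, 8.30%), RUNX (TGTGGT, 16.8%) and the TATA box (TATAAA, 13.6%). Capitals mark the matches in the windows below, written 5′ to 3′ on the plus strand. In the first Foxp3 window, chrX:7579426-7579725, they mark a TATA box 32 bases before the start site. In the second, chrX:7580233-7580532, they mark a STAT match. The Tnfrsf9 window, chr4:150927749-150928048, holds a STAT match, an NF-kB match and a RUNX match in that order, and the Tnfrsf18 window, chr4:156026072-156026371, holds 1 STAT match.
Foxp3, first start site: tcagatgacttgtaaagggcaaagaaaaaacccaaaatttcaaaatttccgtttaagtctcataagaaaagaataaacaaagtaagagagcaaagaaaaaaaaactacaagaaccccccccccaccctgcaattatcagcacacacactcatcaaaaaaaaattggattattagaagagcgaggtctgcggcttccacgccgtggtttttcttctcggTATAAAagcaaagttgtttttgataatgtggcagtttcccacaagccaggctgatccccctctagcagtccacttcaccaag
Foxp3, second start site: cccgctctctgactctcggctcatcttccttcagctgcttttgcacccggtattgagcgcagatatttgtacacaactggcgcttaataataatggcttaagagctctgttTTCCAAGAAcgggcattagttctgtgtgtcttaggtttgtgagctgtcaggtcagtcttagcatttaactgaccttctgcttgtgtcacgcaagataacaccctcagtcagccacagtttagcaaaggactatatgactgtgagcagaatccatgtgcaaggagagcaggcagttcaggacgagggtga
Tnfrsf9: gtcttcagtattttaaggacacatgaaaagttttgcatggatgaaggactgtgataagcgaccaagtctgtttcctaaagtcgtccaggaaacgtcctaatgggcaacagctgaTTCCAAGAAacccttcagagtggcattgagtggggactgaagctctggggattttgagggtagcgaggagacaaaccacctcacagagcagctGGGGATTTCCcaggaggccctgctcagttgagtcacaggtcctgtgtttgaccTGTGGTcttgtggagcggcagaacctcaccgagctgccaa
Tnfrsf18: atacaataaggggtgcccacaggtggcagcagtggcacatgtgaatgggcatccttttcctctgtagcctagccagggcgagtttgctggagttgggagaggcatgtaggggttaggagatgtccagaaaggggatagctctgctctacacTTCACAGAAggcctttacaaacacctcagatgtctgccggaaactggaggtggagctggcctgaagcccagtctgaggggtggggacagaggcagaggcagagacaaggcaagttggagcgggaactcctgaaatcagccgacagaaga
The windows of Il2ra and Tnfrsf4 and the other Tnfrsf9 window held none of the 5 motifs, and that of Izumo1r held 1 RUNX match.

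After cell calling and doublet removal, the IgG1 mice gave 4349, 4228 and 3269 cells and the ipilimumab mice 4351, 4002 and 4063. The files held from 37666042 to 48612412 UMIs. Called barcodes held 92.4% to 93.1% of them in 5 libraries and 78.9% in ipilimumab replicate 1, and library pairs shared from 0 to 8 cell barcodes. Cells with at least 2 UMIs of Cd3e, Cd3d and Cd3g were gated as T cells and divided by UMIs of Cd4, Cd8a and Cd8b1. The gates held 1604 CD4, 1990 CD8, 1300 CD4-CD8- and 104 CD4+CD8+ T cells, and another 243 cells that also passed the gate of another lineage were set apart as mixed T cells. Trac, encoding the T cell receptor alpha constant region and not used for gating, was found in 87.8% of CD4 T cells and 0.889% of B cells. CD4 T cells made up 30.6% ± 0.896 (SD, n = 3) of T cells in IgG1 mice and 33.5% ± 1.96 (n = 3) in ipilimumab mice (exact two-sided permutation test, p = 0.2). Mixed cells were 3.20% ± 1.47 of the T gate in IgG1 and 5.96% ± 1.43 in ipilimumab mice (exact permutation p = 0.1, the smallest that 3 against 3 mice allow). Levels are given as CPM, the UMIs of a gene per 1000000 UMIs of the cells in a gate and mouse, and are compared between cell types or treatments and not between genes.

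Foxp3 and Izumo1r were nearly restricted to T cells. Of 649 Foxp3 UMIs in gated cells, 94.6% lay in the T gate, mixed T cells included, as did 98.4% of 1664 Izumo1r UMIs. Foxp3 averaged 26.2 CPM ± 11.3 (SD, n = 6 mice) in CD4+CD8+, 18.4 ± 7.22 in CD4, 12.9 ± 5.26 in CD4-CD8- and 1.17 ± 1.17 in CD8 T cells, and 0.327 ± 0.226 in B cells. It had no UMI in 1775 neutrophils, which allows up to 0.169% of cells with a UMI. Izumo1r averaged 59.5 ± 10.7 CPM in CD4, 51.4 ± 18.8 in CD4+CD8+, 33.8 ± 6.76 in CD4-CD8- and 8.26 ± 1.5 in CD8 T cells. Below these T gates it was at 0.248 CPM or less.

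Ikzf2, Tnfrsf4 and Tnfrsf18 were found in more cell types. Ikzf2 averaged 471 ± 284 CPM in CD4+CD8+, 387 ± 148 in CD4-CD8-, 330 ± 59.9 in CD4 and 144 ± 33.8 in CD8 T cells, then 69.1 ± 27.5 in NK cells and 30.2 in fibroblasts. Tnfrsf4 was at 110 ± 42.0 CPM in CD4 and 103 ± 49.7 in CD4+CD8+ T cells, followed by migratory dendritic cells at 49.8 and CD4-CD8- T cells at 46.7 ± 15.5, with 5.41 in CD8 T cells. Tnfrsf18 was spread over the lymphocytes, at 78.8 ± 26.7 CPM in CD4, 71.4 ± 12.5 in CD4-CD8-, 57.9 in CD4+CD8+ T cells, 51.1 ± 6.84 in NK and 39.7 ± 9.13 in CD8 T cells. B cells had 5.99 CPM of Tnfrsf18.

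Tnfrsf9, Il2ra and Il10 had their highest means outside T cells. NK cells had 214 ± 30.3 CPM of Tnfrsf9 and 39.5% of its 5030 UMIs, migratory dendritic cells 159 ± 74.7, CD4-CD8- T cells 59.6 ± 29.5 and CD4 T cells 48.3 ± 18.7. Il2ra was at 120 ± 93.7 CPM in migratory dendritic cells, a gate of 52 cells in which ipilimumab replicate 1 had none, at 60.7 ± 13 in CD4-CD8- T cells and at 25.2 ± 19.3 in CD4 T cells. A gate of 49 group 2 innate lymphoid cells, pooled over mice because it was too small to divide, held 396 CPM of Il2ra, 300 of Ikzf2 and 141 of Tnfrsf18, each in 61.2% of the cells, and no UMI of Foxp3 or Izumo1r. Il10 had the broadest distribution, with 24.8 ± 16.0 CPM in C1q macrophages, 22.7 ± 17 in nonclassical monocytes, 19.995 ± 6.86 in fibroblasts, 19.9 ± 13.2 in CD4 T cells and 14.2 ± 6.89 in neutrophils. Alveolar macrophages, at 5.47 CPM, held 24.7% of the Il10 UMIs and CD4 T cells 21.1%. The barcodes taken as ambient RNA held 10.5 CPM of Il10 and 4.07 CPM of Foxp3.

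**Figure D1:**
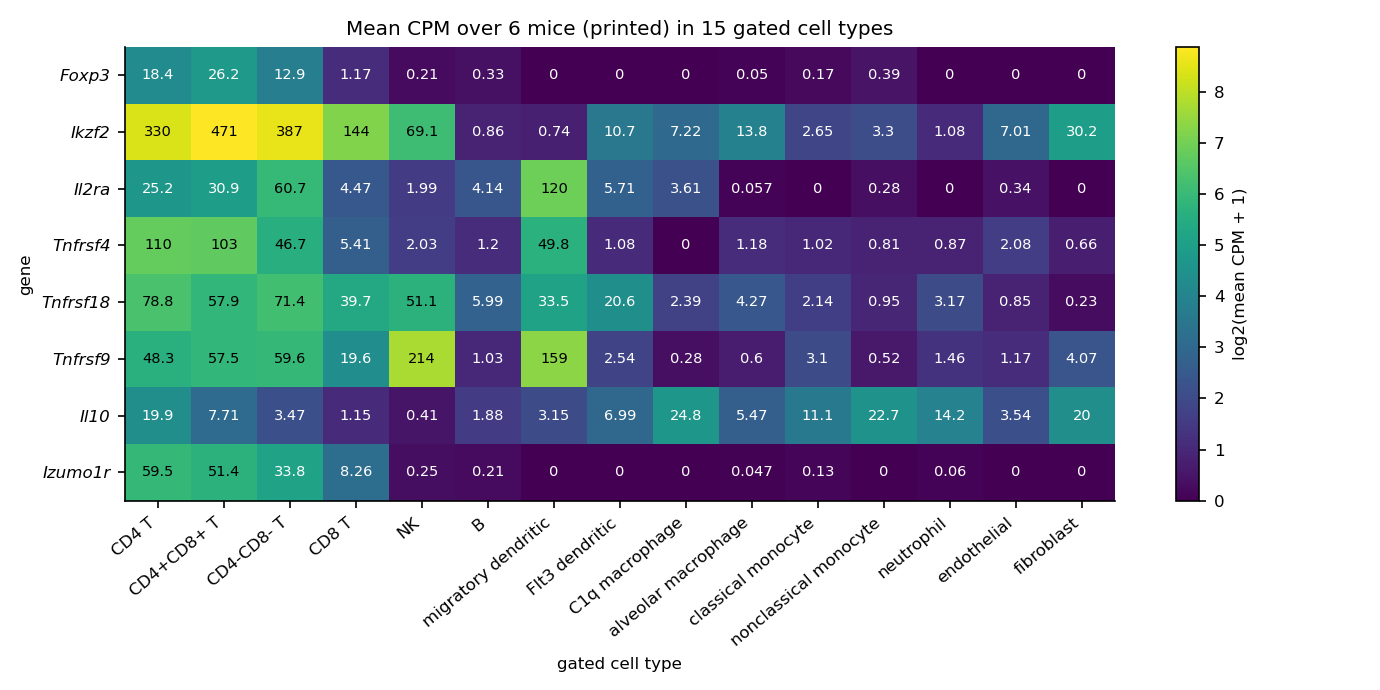
Mean CPM of the 8 genes (rows) in 15 gated cell types (columns), averaged over 6 mice; the colour is log2(mean CPM + 1) and the printed value is the mean CPM. Foxp3 stands out in the CD4, CD4+CD8+ and CD4-CD8- T cell columns and Izumo1r in all 4 T cell columns, Tnfrsf9 at 214 CPM in NK cells and Il2ra at 120 CPM in migratory dendritic cells, while Il10 is spread over myeloid cells, fibroblasts and CD4 T cells.

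Neighbours in these orders were compared within mice by an exact sign-flip permutation test, for 100 neighbouring pairs in all, none of which can pass adjustment for that number because 6 mice allow no p below 0.0312. Many neighbours did not differ beyond their spread. CD4 and CD4+CD8+ T cells were not told apart for Tnfrsf4 (higher in CD4 in 3 of 6 mice, exact p = 0.688) or Izumo1r (4 of 6 mice, exact p = 0.219), nor did the first 4 cell types of Il10, with exact p from 0.75 to 1 for each step. For Foxp3, CD4+CD8+ T cells were above CD4 T cells in 6 of 6 mice (exact p = 0.0312), CD4 above CD4-CD8- T cells in 5 of 6 (exact p = 0.0625) and CD4-CD8- above CD8 T cells in 6 of 6 (exact p = 0.0312). The 17 Foxp3+ CD4+CD8+ T cells had a median of 21174 UMIs, against 9964 in the Foxp3- cells of that gate. Foxp3+ CD4 T cells had a median of 9785 UMIs. The median doublet scores of the 2 kinds of Foxp3+ cell were 0.479 and 0.467. Whether CD4+CD8+ T cells were doublets was not tested. For Tnfrsf9, NK cells were above migratory dendritic cells in 4 of 6 mice (exact p = 0.188).

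Between T cell subsets, the members tested were higher in CD4 than in CD8 T cells. The fit was made over 9796 genes with edgeR's quasi-likelihood test on UMIs summed per mouse, with the mouse as a block, and genes are named as called where the Benjamini-Hochberg adjusted p over all genes tested was under 0.05 and the log2 fold change was over 0.3 in size. It called 2251 genes (23.0%), of which 1228 (12.5%) were higher in CD4 T cells, and among them were Tnfrsf4, Foxp3, Izumo1r, Il2ra, Tnfrsf9, Ikzf2 and Tnfrsf18. The log2 fold change of CD4 over CD8 was 4.33 ± 0.153 (SE) for Tnfrsf4 (edgeR adjusted p = 4.13e-11), 3.97 ± 0.334 for Foxp3 (3.47e-07), 2.80 ± 0.115 for Izumo1r (2.36e-10) and 2.43 ± 0.307 for Il2ra (2.18e-05). Differences were smaller for Tnfrsf9 at 1.27 ± 0.167, Ikzf2 at 1.17 ± 0.133 and Tnfrsf18 at 0.93 ± 0.102. The filter on low counts asked for 3.41 CPM in 6 libraries. Foxp3, with 23 UMIs in CD8 T cells (0 to 10 per mouse), and Il2ra, with 89, met it only through their CD4 libraries, and a member that passes in this way has to be higher there. Il10, with 25 UMIs in CD8 T cells, reached the limit in 5 CD4 libraries and was not tested, so that the members tested are not all members. The same members were called in each of 13 alternative fits.

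Against CD4-CD8- T cells, the members divided. Of 9283 genes, 959 (10.3%) were called, 428 (4.61%) higher in CD4 T cells and 531 (5.72%) lower. Il10 at 2.51 ± 0.291 (edgeR adjusted p = 3.88e-05), Tnfrsf4 at 1.20 ± 0.118 (8.81e-06) and Izumo1r at 0.81 ± 0.105 (0.000104) were higher in CD4 T cells, and Il2ra was lower, at -1.41 ± 0.256 (0.0017). Foxp3 at 0.49 ± 0.169 (adjusted p = 0.0767), Ikzf2 at -0.18, Tnfrsf9 at -0.29 and Tnfrsf18 at 0.10 were not called, but Tnfrsf9 was without ipilimumab replicate 1, at -0.44 (adjusted p = 0.0429). For Foxp3, 3 of 13 alternatives passed the threshold, with adjusted p from 0.0359 to 0.517 over the alternatives.

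Individual cells showed how the genes were shared out within the CD4 T gate. Foxp3 UMIs were found in 96 of 1604 CD4 T cells, 1 UMI in 28 of them, 2 in 24 and at most 12. The UMIs of the other members were unevenly placed between these 96 Foxp3+ cells and the 1508 Foxp3- cells. Foxp3- means that no Foxp3 UMI was captured, which does not show that the gene was off in the cell. The Foxp3+ cells held 70.6% of the Il2ra UMIs of the CD4 T gate, 56.4% of Ikzf2, 55.7% of Tnfrsf9, 29.1% of Tnfrsf4, 25.9% of Il10, 22.7% of Tnfrsf18 and 14.7% of Izumo1r. At least 4 of the 7 other members were detected in 73 of 96 Foxp3+ cells (76.0%) and in 112 of 1508 Foxp3- cells (7.43%). None of the 7 was detected in 1 Foxp3+ cell and in 543 Foxp3- cells (36.0%).

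Ikzf2, which encodes Helios, was the member detected by UMIs in most Foxp3+ cells. Ikzf2 was detected in 5 of 8, 10 of 12 and 11 of 12 Foxp3+ cells of the IgG1 mice and in 20 of 22, 15 of 17 and 21 of 25 of the ipilimumab mice, which is 85.4% of all 96, against 16.5% of Foxp3- cells. The level of Ikzf2 in Foxp3+ cells was 481, 2031 and 2683 CPM in IgG1 and 2691, 2178 and 1848 CPM in ipilimumab mice, and in Foxp3- cells it was 235, 131, 151, 135, 126 and 183 CPM in the same order. Every mouse was higher in Foxp3+ cells, and IgG1 replicate 1, with 8 such cells, stood below the other 5. Il2ra, which encodes CD25, was the least often detected of the receptor genes, but its UMIs were the most unevenly divided. Il2ra was found in 47.9% of Foxp3+ and 3.51% of Foxp3- cells, at 53.5, 227 and 67.3 CPM in Foxp3+ cells of IgG1 mice and 119, 141 and 491 CPM in those of ipilimumab mice, against 1.64 to 18.0 CPM in Foxp3- cells. The ranges did not overlap, although ipilimumab replicate 3 was far above the rest.

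Among the TNF receptor genes, the UMIs of Tnfrsf9 were the most concentrated in Foxp3+ cells. Tnfrsf9 was detected in 60.4% of Foxp3+ and 10.2% of Foxp3- cells, with 35.6, 222 and 219 CPM in Foxp3+ cells of IgG1 and 279, 477 and 424 CPM in those of ipilimumab mice. Foxp3- cells held 13.9 to 37.8 CPM of Tnfrsf9, so that the Foxp3+ cells of IgG1 replicate 1 were within the range of Foxp3- cells. UMIs of Tnfrsf4 and Tnfrsf18 were also common outside Foxp3+ cells. Tnfrsf4 was detected in 78.1% against 27.3% and Tnfrsf18 in 70.8% against 37.2%, with mean levels of 355 ± 147 against 86.9 ± 35 CPM for Tnfrsf4 and 184 ± 105 against 67.3 ± 21.3 CPM for Tnfrsf18 (SD, n = 6). Izumo1r was detected in 68.8% against 26.9%, at 115 ± 44.1 against 55.3 ± 10.4 CPM.

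Il10 was rare in either kind of cell, in 15.6% of Foxp3+ and 2.98% of Foxp3- cells. Its UMIs were also concentrated in few cells. Of 305 Il10 UMIs in CD4 T cells, 10 of 60 positive cells held 66.9%, and 1 cell held 31, while in alveolar macrophages 356 UMIs lay in 261 cells with at most 6 in a cell. The level in Foxp3+ cells was 0, 53.1 and 5.61 CPM in IgG1 and 6.28, 129 and 119 CPM in ipilimumab mice, above the Foxp3- cells of the same mouse in 4 of 6 mice.

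By share of cells, each other member was detected more often in Foxp3+ than in Foxp3- CD4 T cells in 6 of 6 mice (exact sign-flip permutation test, p = 0.0312 for each, unadjusted), apart from Il10, with 5 of 6 mice (exact p = 0.0625). Foxp3+ cells were deeper, with a median of 9785 UMIs against 7881, and had a higher median doublet score, 0.467 against 0.271. With every cell thinned to 1000 UMIs, Ikzf2 was in 68.3% of Foxp3+ and 6.56% of Foxp3- cells as a mean over mice, Il2ra in 18.7% and 0.753%, Tnfrsf4 in 19.5% and 6.28% and Tnfrsf18 in 16.1% and 6.98%, each higher in 6 of 6 mice. The thinned shares were higher in 5 of 6 mice for Tnfrsf9, 4 of 6 for Izumo1r and 2 of 6 for Il10. Markers of other lineages were also summed per mouse. The 5 endothelial markers summed to 9.65 to 107 CPM in Foxp3+ and 41.1 to 82.2 CPM in Foxp3- cells. The 5 NK markers summed to 0 to 3.51 CPM in Foxp3+ and 4.44 to 21.6 CPM in Foxp3- cells, the 4 B markers to 0 to 56.1 and 5.87 to 13.8 CPM, the 6 alveolar macrophage markers to 22.4 to 133 and 23.7 to 158 CPM, and the 5 fibroblast markers were at 0 in Foxp3+ cells of every mouse. Markers of group 2 innate lymphoid cells, of which Gata3, Il7r, Il1rl1 and Areg are T cell genes too, summed to 570 to 2399 CPM in Foxp3+ and 890 to 1418 CPM in Foxp3- cells. Their part in the result was not tested. Of B cells, 0.107% (Izumo1r) to 3.66% (Tnfrsf18) held a UMI of the 7 genes.

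**Figure D2:**
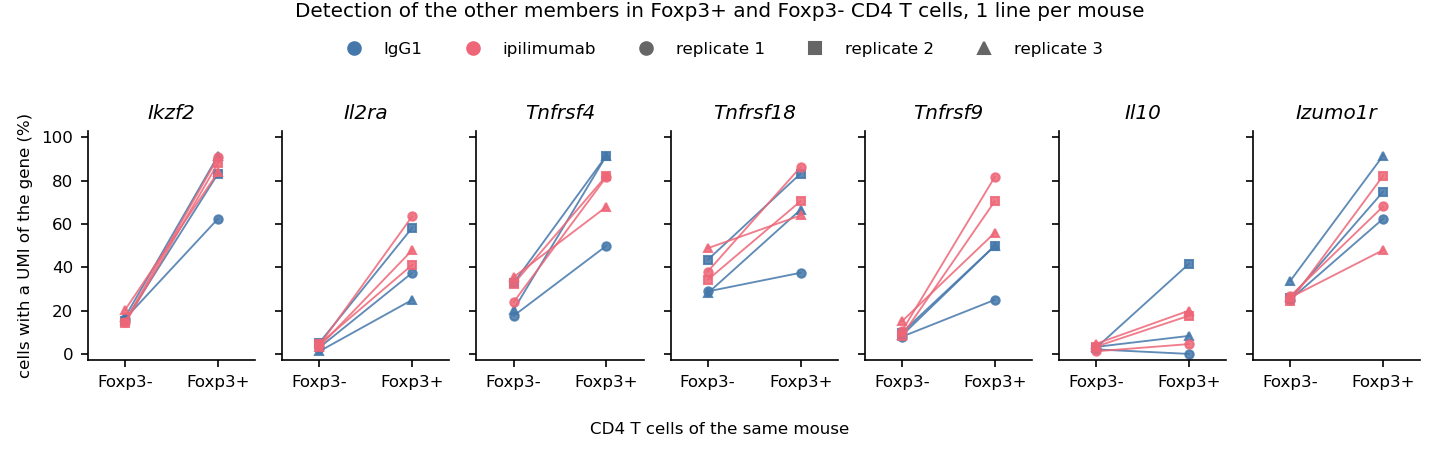
Share of CD4 T cells with a UMI of each other member (y axis, %) in Foxp3- and Foxp3+ cells of the same mouse (x axis), 1 line per mouse, blue for IgG1 and red for ipilimumab, with the marker shape giving the replicate. For Ikzf2, Il2ra, Tnfrsf4, Tnfrsf18, Tnfrsf9 and Izumo1r, 6 of 6 lines go up, and for Il10 5 of 6.

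The fit across genes gave the sizes of these differences. It called 819 of 7931 genes (10.3%) between Foxp3+ and Foxp3- CD4 T cells of the same mice, 445 (5.61%) higher and 374 (4.72%) lower in Foxp3+ cells, and 530 genes without ipilimumab replicate 1. The 7 other members were higher in Foxp3+ cells, Foxp3 itself being left out because it set the gate. Il2ra passed the filter on low counts only through its Foxp3+ libraries. The log2 fold change was 4.28 ± 0.331 (SE) for Il2ra (edgeR adjusted p = 1.55e-07), 3.55 ± 0.286 for Ikzf2 (2.52e-07), 3.55 ± 0.289 for Tnfrsf9 (2.64e-07), 1.97 ± 0.211 for Tnfrsf4 (5.03e-06), 1.38 ± 0.206 for Tnfrsf18 (0.000167) and 0.89 ± 0.194 for Izumo1r (0.00518). These 6 were called in each of 14 alternative fits. Il10, at 1.58 ± 0.438 (adjusted p = 0.0251), was called in 10 of 14, and its adjusted p was 0.0684 without IgG1 replicate 2, 0.194 without ipilimumab replicate 2, 0.177 without ipilimumab replicate 3 and 0.094 with DESeq2.

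Genes of the pathways around the members were read in the same fit, where the median log2 fold change of all genes was -0.02. Some list genes passed the filter on low counts, 8.64 CPM in 6 libraries, mainly through 1 gate. Such genes had to be higher in that gate, so the counts and medians below include directions set by the filter. Examples are Lrrc32 and Klrg1, at 3.59 and 8.45 CPM in Foxp3- cells, and Ifng, at 6.88 CPM in Foxp3+ cells. Of 25 other regulatory T cell genes, 19 were tested, 14 were higher in Foxp3+ cells and none was lower, with a median of 1.79. They included Lrrc32 at 4.56 ± 0.308, which encodes GARP, the surface anchor of latent TGF-beta, Il1rl1, the IL-33 receptor, at 3.71 ± 0.306, Areg, the growth factor amphiregulin, at 2.64 ± 0.447, and Ctla4 at 2.28 ± 0.120. In these mice the Ctla4 locus is humanized, and its UMIs were counted against the mouse gene. Ctla4 averaged 3240 ± 640 CPM in Foxp3+ and 650 ± 212 CPM in Foxp3- cells (SD, n = 6). In the list of TNF receptor family ligands and signalling, 9 of 16 genes tested were higher and none lower, with a median of 0.61. They were Traf1 at 1.18, the NF-kB subunit Rel at 1.07, Traf3 at 0.94, Cd27, Nfkb2, Nfkb1, Tnfrsf1b, Relb and the NF-kB inhibitor Nfkbia.

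The other lists were mixed or lower. Among 20 regulators and partners of FOXP3, each tested, 6 were higher, with Ikzf4 (Eos) at 1.78 and Prdm1 (Blimp-1) at 1.51, and 5 were lower, with the chromatin organiser Satb1 at -1.72 and Bach2 at -0.96 (median 0.27). In the interleukin-2 receptor pathway, 2 of 10 genes tested were higher, the STAT5-induced inhibitor Cish at 1.17 and the receptor chain Il2rb at 0.68, and 2 were lower, Jak1 at -0.46 and Il7r at -0.62 (median 0.02). Of 6 genes of the interleukin-10 pathway, each tested, Il10ra was higher at 1.16 and none was lower (median 0.74). Of 13 naive and helper CD4 T genes tested, none was higher and 8 were lower, with Igfbp4 at -3.72, Ifng at -2.65, Cd40lg at -2.14, Tbx21 at -2.02, Lef1 at -1.64 and Tcf7 at -1.63 (median -1.64). The 8 called genes with the largest log2 fold change were Lrrc32, Il2ra, Il1rl1, Ikzf2, Myo1e at 3.55, Tnfrsf9, Neb at 3.50 and Klrg1 at 3.21, so 3 of them were members. The 8 with the smallest were Apol7e, Pdlim4, Acoxl, Igfbp4, Gm14085, Tdrp, Auts2 and Trim36. Apart from Igfbp4, these averaged 0.523 to 5.87 CPM in Foxp3+ cells, and Lrrc32, Neb, Klrg1 and Il2ra 3.59 to 8.57 CPM in Foxp3- cells. The filter on low counts asked for 8.64 CPM in 6 libraries, so these genes passed mainly through the other gate. A gene that passes in this way has to be higher in that gate. For Apol7e, with 1 UMI in Foxp3+ and 303 in Foxp3- cells, the ratio of pooled CPM was 0.0352 with an exact 95% counting interval of 0.000888 to 0.198.

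Co-detection was also counted for pairs without Foxp3, over all CD4 T cells, the 96 Foxp3+ cells included. Ratios within Foxp3- cells alone were not calculated, so the pairs without Foxp3 do not show co-detection apart from Foxp3+ cells. In the CD4 T gate each of the 28 pairs among the 8 genes was found together in more cells than expected from the shares of the single genes within each mouse, with a median ratio of observed to expected of 2.15. Foxp3 and Il2ra were found together in 46 cells against 6.37 expected (7.22 times), Foxp3 and Ikzf2 in 82 against 20.3 (4.04 times) and Foxp3 and Tnfrsf9 in 58 against 13.6 (4.27 times). Among pairs without Foxp3, Il2ra with Il10 at 4.0 and Il2ra with Tnfrsf9 at 3.82 were highest. The lowest ratio was that of Tnfrsf18 with Izumo1r at 1.23, and Tnfrsf4 and Tnfrsf18, the chromosome 4 neighbours, had 1.48. Expected values take the cells of a mouse as equally deep. After thinning each cell to 1000 UMIs, 25 of 28 ratios were above 1, and the 3 others were pairs of Il10 with no cell left. These ratios are a description across cells, which share libraries and are not replicates.

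**Figure D3:**
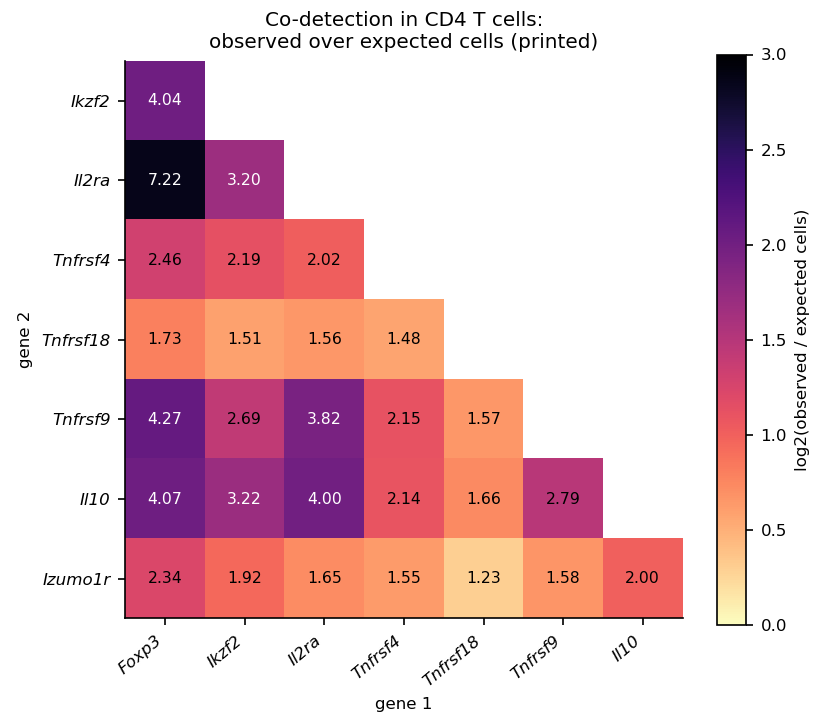
Ratio of observed to expected cells with a UMI of both genes, for each pair of the 8 genes in 1604 CD4 T cells (printed; colour is log2 of the ratio). The highest ratio, 7.22, is that of Foxp3 with Il2ra, and the lowest, 1.23, that of Tnfrsf18 with Izumo1r.

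Foxp3+ cells of the CD4-CD8- and CD8 T gates also held other members. In the CD4-CD8- T gate, 56 cells held Foxp3, and Ikzf2 was detected in 85.7% of them, Tnfrsf4 in 71.4% and Il2ra in 69.6%, against 29.7%, 13.3% and 14.5% of the Foxp3- cells of that gate. These 56 cells had a median of 7049.5 UMIs, against 9785 in Foxp3+ CD4 T cells. Whether they were CD4 T cells without a captured Cd4 UMI was not tested. Of the 10 Foxp3+ CD8 T cells, 70.0% held Ikzf2. The 37 Foxp3+ mixed T cells had a median of 20668 UMIs and a median doublet score of 0.760, and 94.6% held Ikzf2. The 18 B cells with Foxp3 had 1 UMI of it each, and none of them held Ikzf2, Tnfrsf4, Tnfrsf9 or Izumo1r, while 2 held Tnfrsf18, 1 Il2ra and 1 Il10.

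**Figure D4:**
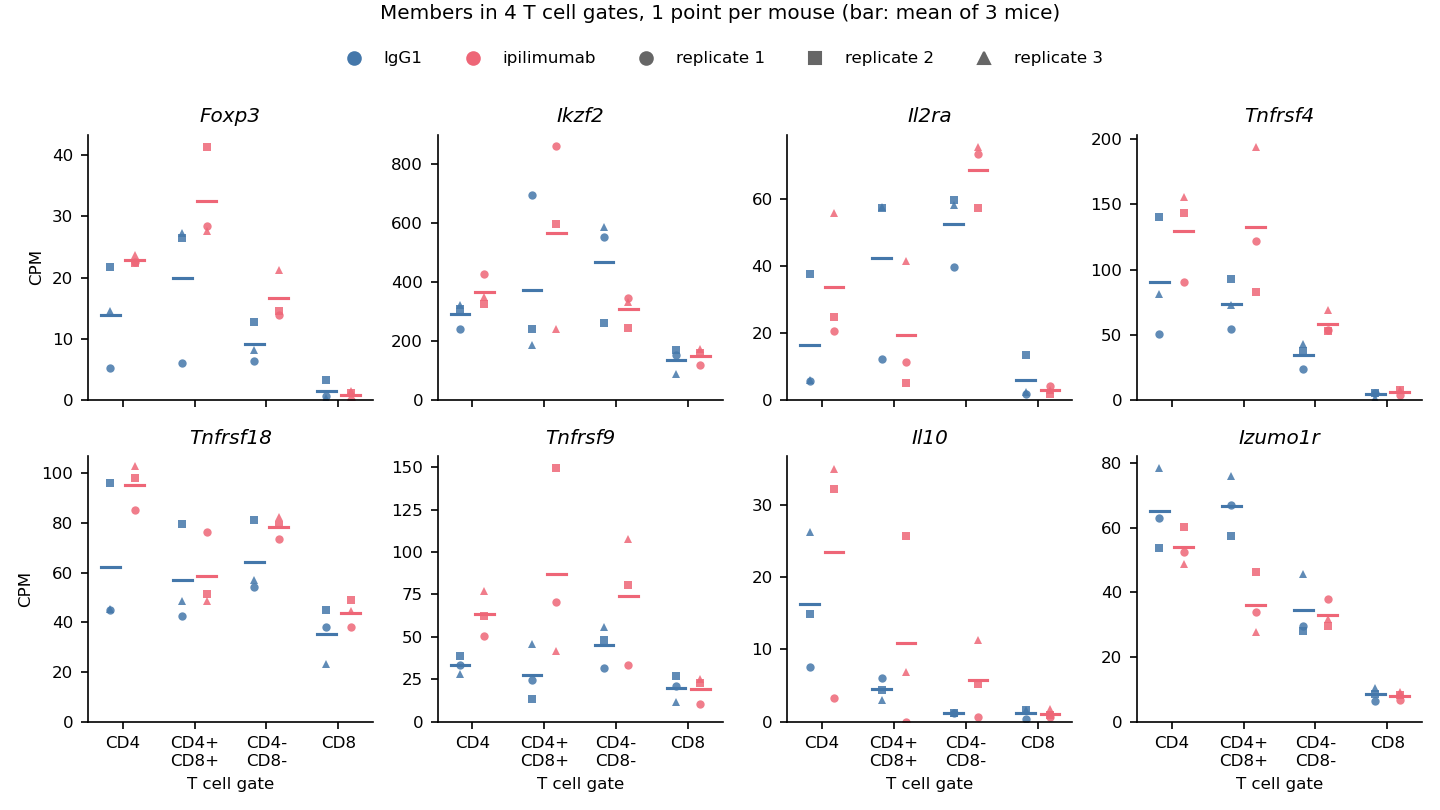
CPM of the 8 genes (y axis, a separate linear scale from 0 for each gene) in 4 T cell gates (x axis), 1 point per mouse with the marker shape giving the replicate, blue for IgG1 and red for ipilimumab, and a bar at the mean of 3 mice. In CD4 T cells the ipilimumab points of Foxp3, Ikzf2 and Tnfrsf9 lie above the IgG1 points, and those of the other 5 genes overlap with them.

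Whether ipilimumab changed these genes was asked in each T cell gate. In CD4 T cells, Foxp3 was at 5.25, 21.8 and 14.5 CPM in the IgG1 mice and at 22.5, 22.4 and 23.7 CPM in the ipilimumab mice. The groups did not overlap, but IgG1 replicate 2 came within 1 CPM of the ipilimumab mice. Ikzf2 was at 241, 310 and 323 CPM against 426, 327 and 351, and Tnfrsf9 at 33.4, 38.6 and 27.8 CPM against 50.8, 62.3 and 76.8, again without overlap. For each of these 3 genes the exact permutation p was 0.1, the smallest that 3 against 3 mice allow. All 3 ipilimumab mice were above all 3 IgG1 mice for 3 of 8 members and for 5.90% of all genes with at least 50 UMIs in these cells.

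The other members overlapped. Il2ra was at 5.73, 37.7 and 6.1 CPM in IgG1 and 20.7, 24.8 and 55.9 CPM in ipilimumab mice, and Il10 at 7.64, 15 and 26.3 CPM against 3.22, 32.2 and 35. Tnfrsf4 was at 50.6, 140 and 81.2 CPM against 90.5, 143 and 156, and Tnfrsf18 at 44.9, 96.2 and 45.3 CPM against 85.1, 98.2 and 103. In each of Foxp3, Il2ra, Tnfrsf4, Tnfrsf18 and Tnfrsf9, IgG1 replicate 2 was the highest of its group. Izumo1r, at 63.1, 53.6 and 78.5 CPM against 52.6, 60.3 and 48.8, had the lower mean in ipilimumab mice.

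In the fit across genes none of these differences was called. Of 9649 genes, edgeR called 0 in CD4 T cells, 582 had an unadjusted p under 0.05, and DESeq2 called 18. The log2 fold change of ipilimumab over IgG1 was positive for 7 of 8 members, at 1.04 ± 0.589 (SE) for Il2ra, 0.92 ± 0.183 for Tnfrsf9, 0.69 ± 0.338 for Foxp3, 0.61 ± 0.246 for Tnfrsf18, 0.50 ± 0.302 for Tnfrsf4, 0.47 ± 0.615 for Il10 and 0.32 ± 0.134 for Ikzf2, and negative for Izumo1r at -0.30 ± 0.166. Their median was 0.55, and that of all genes tested was -0.01. Single mice moved these values. Il2ra was at 2.49 without IgG1 replicate 2 and at 0.48 without ipilimumab replicate 3, and Il10 at 1.03 without IgG1 replicate 3 and 0.0547 without ipilimumab replicate 3. Without IgG1 replicate 1, Foxp3 was at 0.33, Tnfrsf4 at 0.22 and Ikzf2 at 0.19, and without IgG1 replicate 2, Foxp3 was at 1.14, Tnfrsf4 at 0.94 and Tnfrsf18 at 1.06. Izumo1r ran from -0.42 to -0.12 and Tnfrsf9 from 0.76 to 1.07 with 1 mouse left out. Tnfrsf9 had the smallest p of the 8 (edgeR adjusted p = 0.452), and over 14 alternatives its adjusted p ran from 2.54e-05 to 0.999, with a call in 2 of them, DESeq2 (0.0354) and the fit with no filter on low counts. Foxp3 (edgeR adjusted p = 0.847) was called in none of the 14. With no filter on low counts, Il2ra, Tnfrsf4 and Tnfrsf18 were called too, among 220 genes. None of the genes of the 6 pathway lists was called. Over the CD4 T cells, the markers of group 2 innate lymphoid cells summed to 884 to 1065 CPM in IgG1 and 1074 to 1517 CPM in ipilimumab mice, and the alveolar macrophage markers to 23.6 to 46.8 and 27.5 to 156 CPM. Their part in the differences was not tested.

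The share of CD4 T cells with a Foxp3 UMI had a higher mean in ipilimumab mice, without overlap. It was 3.24% (8 of 247 cells, Wilson 95% interval 1.65 to 6.26), 5.31% (12 of 226, 3.06 to 9.05) and 4.65% (12 of 258, 2.68 to 7.95) in the IgG1 mice and 8.18% (22 of 269, 5.46 to 12.1), 6.07% (17 of 280, 3.82 to 9.51) and 7.72% (25 of 324, 5.28 to 11.1) in the ipilimumab mice. The intervals cover counting error only, and those of the highest IgG1 and the lowest ipilimumab mouse overlap. The means were 4.40% ± 1.06 and 7.32% ± 1.11 (SD, n = 3 each), a difference of 2.92 percentage points (exact permutation p = 0.1). It was 1 of 24 such tests of a member's share in a T cell gate, and its Benjamini-Hochberg adjusted p was 0.8. In B cells 0.213% held a Foxp3 UMI, at a median of 5623.5 UMIs per cell against 7933.5 in CD4 T cells. With each cell thinned to 1000 UMIs the shares were 1.35% ± 0.539 and 2.16% ± 0.305, and the groups overlapped (exact permutation p = 0.2). As a share of all T cells, Foxp3+ CD4 T cells were 1.35% ± 0.357 and 2.46% ± 0.474. Of the other members, Tnfrsf9 was detected in 10.3% of CD4 T cells in IgG1 and 15.6% in ipilimumab mice, without overlap (exact permutation p = 0.1). The shares of the rest overlapped, that of Ikzf2 among them, at 19.1% and 21.7% (exact permutation p = 0.3).

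Within Foxp3+ CD4 T cells, the log2 fold change of Foxp3 itself was 0.03, and no gene was called among 3876 tested (edgeR, 145 at an unadjusted p under 0.05, 2 by DESeq2). The largest values there were 1.68 ± 0.98 for Il10, 1.15 ± 0.412 for Tnfrsf9 and 1.14 ± 0.371 for Tnfrsf18. Leaving out IgG1 replicate 2 put Il10 at 4.10, and leaving out IgG1 replicate 3 put it at 1.14. Il2ra, at 0.99 ± 0.62 over the 6 mice, was at 1.97 and 0.00276 when IgG1 replicate 2 and ipilimumab replicate 3 were left out in turn. These rest on 8 to 25 cells per mouse. A difference of the treatment effect between Foxp3+ and Foxp3- cells was not detectable for a member, with 0 of 8823 genes called by edgeR (346 at an unadjusted p under 0.05, 0 by DESeq2).

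In CD4-CD8- T cells, Foxp3 was without overlap by CPM but not by share of cells, and Ikzf2 had the lower mean CPM in ipilimumab mice. Foxp3 was at 6.41, 12.7 and 8.18 CPM in IgG1 and 14.0, 14.6 and 21.2 CPM in ipilimumab mice, and Tnfrsf4 at 23.9, 37.5 and 43.2 CPM against 53.9, 53.2 and 68.7, both without overlap. By CPM, all 3 ipilimumab mice were higher for these 2 of 7 members and for 7.36% of all genes of at least 50 UMIs. The share of these cells with a Foxp3 UMI overlapped between the groups. It was 3.26%, 4.37% and 3.55% in IgG1 and 5.10%, 4.03% and 5.26% in ipilimumab mice (exact permutation p = 0.2). Ikzf2 was at 555, 260 and 586 CPM against 348, 243 and 332, with IgG1 replicate 2 among the ipilimumab mice. The log2 fold changes were 0.89 ± 0.330 for Foxp3 (edgeR adjusted p = 0.478), 0.76 ± 0.214 for Tnfrsf4 (0.457) and -0.59 for Ikzf2. Without IgG1 replicate 2, Ikzf2 was called, at -0.86 (adjusted p = 0.0164), and with no filter on low counts Ikzf2 (0.00038), Tnfrsf9 (0.00309) and Tnfrsf4 (0.00551) were. Of 8974 genes, 1 (0.0111%) was called, Gzma, the cytotoxic granule protease granzyme A, at 2.08 ± 0.243 (adjusted p = 0.029). With 1 mouse left out, 0 to 92 genes were called, the 92 without IgG1 replicate 2.

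In CD8 T cells, 0 of 10008 genes were called (412 at an unadjusted p under 0.05, 2 by DESeq2), and the 6 members tested had log2 fold changes from -0.89 for Il2ra to 0.67 for Tnfrsf4. Il2ra was at 1.85, 13.5 and 2.47 CPM in IgG1 and 4.19, 1.79 and 3.0 CPM in ipilimumab mice, so that IgG1 replicate 2 set the sign, and without it the log2 fold change was 0.45. The difference of the treatment effect between CD4 and CD8 T cells was tested as an interaction, and 0 of 10453 genes were called (679 at an unadjusted p under 0.05, 7 by DESeq2). It was largest among the members for Il2ra, at 1.94 ± 0.443 (edgeR adjusted p = 0.306), followed by Foxp3 at 1.18 and Tnfrsf9 at 0.90. Without ipilimumab replicate 1, the Il2ra interaction was called, at 2.53 (adjusted p = 0.0386), and with no filter on low counts those of Il2ra (adjusted p = 0.000302) and Tnfrsf9 (0.0177) were. Over all T cells together, Foxp3 at 0.83, Tnfrsf9 at 0.78 and Tnfrsf4 at 0.71 were positive, and 0 of 11979 genes were called (777 at an unadjusted p under 0.05, 21 by DESeq2). With no filter on low counts Tnfrsf9 was called there (adjusted p = 0.0399).

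**Figure D5:**
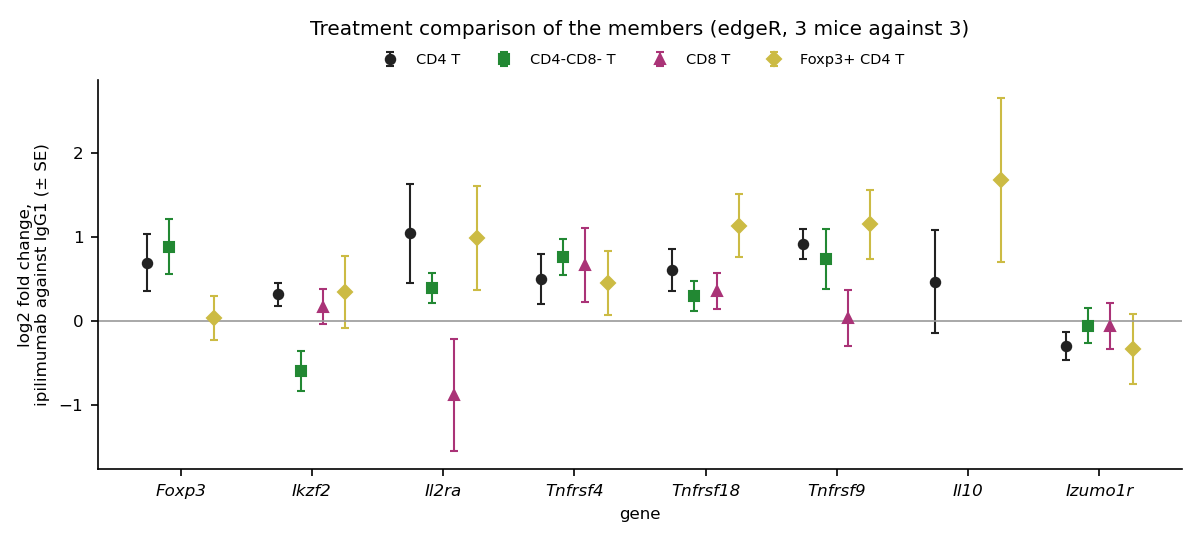
Log2 fold change of ipilimumab over IgG1 (y axis) for each member (x axis) in CD4, CD4-CD8- and CD8 T cells and in Foxp3+ CD4 T cells, from edgeR on 3 against 3 mice; points are estimates and bars 1 SE, and a missing point was not tested. In CD4 T cells 7 of 8 points are above 0, and none of the points passed the adjusted threshold.

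Over 15 gates, 47 pairs of a member and a cell type had at least 50 UMIs. In 14 of them (29.8%) the CPM of the treatment groups did not overlap. With 1 mouse left out, the count ran from 15 to 25 pairs, the 25 without IgG1 replicate 2. Leaving out a mouse cannot lower this count. The shares over all genes that follow are for all mice, and none was calculated with a mouse left out. Over all genes with at least 50 UMIs, the share without overlap was 10.1% in CD4, 11.9% in CD4+CD8+, 14.5% in CD4-CD8- and 8.94% in CD8 T cells. It was 10.5% in NK cells, 11.6% in B cells, 12.4% in fibroblasts, 9.71% in alveolar and 10.3% in C1q macrophages, 10.7% in neutrophils and in both kinds of dendritic cells, and 9.34% in classical and 12.5% in nonclassical monocytes. Outside T cells, 8 of 21 pairs did not overlap. The mean of Ikzf2 was lower in ipilimumab mice in NK cells, from 86.9 ± 30.5 to 51.3 ± 3.66 CPM, in fibroblasts, from 41.5 ± 7.59 to 19.0 ± 9.03 CPM, and in alveolar macrophages, from 17 ± 2.96 to 10.6 ± 1.35 CPM (SD, n = 3 each). That of Il10 was lower in neutrophils, from 19.7 ± 4.39 to 8.66 ± 2.90 CPM, and in alveolar macrophages, from 6.5 ± 1.39 to 4.44 ± 0.463 CPM. That of Tnfrsf18 was higher in Flt3 dendritic cells, from 12.7 ± 5.15 to 28.6 ± 3.75 CPM, and in alveolar macrophages, from 3.53 ± 0.688 to 5.00 ± 0.357 CPM, and Tnfrsf9 was lower in B cells, from 1.27 to 0.791 CPM. Each had an exact permutation p of 0.1, the smallest possible here. Ambient barcodes held 32.7 CPM of Ikzf2, more than the alveolar macrophages did and more than the mean of fibroblasts in ipilimumab mice. They held 28.9 CPM of Tnfrsf18, above the means of Flt3 dendritic cells and alveolar macrophages in either group. Il10 was at 10.5 CPM in them, above both means of alveolar macrophages and the mean of neutrophils in ipilimumab mice. Tnfrsf9 was at 24.0 CPM in them, above both means of B cells. The part of ambient RNA in these differences was not tested. In CD4+CD8+ T cells, a gate of 104 cells, Izumo1r was lower, from 66.8 ± 9.30 to 36.0 ± 9.54 CPM, without overlap.

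For each member, the genes with the most similar profile were found from log2(CPM + 10) averaged over mice in the 15 gates, among 15379 genes. Foxp3 was most like the chemokine receptor genes Ccr8 (Pearson r = 0.998 over 15 gates) and Ccr4 (0.977), then Izumo1r (0.977), and Izumo1r was most like A630023P12Rik (0.997), Crmp1 (0.993) and Trat1 (0.992). Ikzf2 was closest to Camk4 (0.974), Acsbg1 (0.971) and Thy1 (0.968), and Tnfrsf18 to Kdm2b (0.95), Pkp3 (0.946) and Il18r1 (0.940). Tnfrsf9 was closest to Serpinb6b (0.943), to the chemokine gene Ccl5 (0.940) and to Adora2a (0.916), and Tnfrsf4 to Acvr1c (0.942), Ankrd6 (0.940) and B4galnt4 (0.925). The best match was lower for Il2ra, with Dkkl1 (0.903), Paxbp1 (0.901) and Spint2 (0.884), and lowest for Il10, with Sod2 (0.743), Tgm1 (0.726) and Ifnar2 (0.722). The gates share libraries, 4 of them are T cells, and the correlations are a description.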

How the data were processed

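Single cells of the right lung of 6 mice were measured, 1 library per mouse, 3 mice per treatment. The deposited values are counts of UMIs per gene and barcode, made by the authors with Cell Ranger on mm10 (version 7.0.0 in the submitters' processing notes, version 4 in the file headers), for every barcode, with no filter on cells and no ambient correction. Sample groups came from the treatment labels, which read control and anti-CTLA4 antibody (spelled CLTA4), and 0 value columns could not be mapped to a mouse. The names IgG1 and ipilimumab came from the design text of the series.

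Cells were called here by UMI total (1 in 10 of the 99th percentile of the 5000 largest barcodes) or, from 500 UMIs, by a profile unlike the ambient one (FDR 0.01). Cells with at least 200 genes and at most 10% mitochondrial UMIs were kept, and doublets were removed by a nearest-neighbour score at 0.8% per 1000 cells. Cell types are marker gates: at least 2 markers and 3 UMIs, without clustering. Members detected in a gate of under 50 cells are given pooled.

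UMIs were summed per mouse and gate, filtered with filterByExpr and tested with edgeR 4.0.16 (TMM, quasi-likelihood) in R 4.3.3. To give the SE, the estimate was set against the root of its F statistic. The cell-level tests of the study were not used, since cells are not replicates. DESeq2 1.42.0 was an alternative, beside others given in the closing section. Single values were compared by exact permutation tests in scipy 1.17.1. On simulated counts, 77.2% of genes changed by 1 log2 unit and 100% of those changed by 2 were recovered for CD4 T cells between treatments, and 63.2% and 96.3% for Foxp3+ against Foxp3- cells. The simulation gave every gene the same dispersion. These shares therefore do not give the recovery of members or other genes that varied more between mice. Named genes are the members, the genes of 6 pathway lists, the 8 called genes at either end of the Foxp3 comparison, called genes of the treatment comparisons and the 3 genes most like each member. The members and lists were chosen with earlier results of these data known. Pairing of mice by replicate number was checked from the correlation of deviations, and it was not used because the numbers did not pair mice.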

Additional observations from a re-analysis of the deposited data

How the results depend on the processing

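In the comparison of CD4 with CD8 T cells, where Il10 was not tested, the calls of the 7 other members were the same in each alternative. For Foxp3 and Il2ra, which passed the filter on low counts only through their CD4 libraries, that sameness adds no support. In the comparison of Foxp3+ with Foxp3- cells, the calls were the same apart from Il10, and Il2ra passed only through its Foxp3+ libraries. Of the alternatives for the members in CD4 T cells between treatments, 112 of 112 kept the sign and 107 the call. Counts of called genes depended on the fit, and the cause was not tested. With no filter on low counts, the treatment comparisons gave 220 genes in CD4, 89 in CD8, 291 in CD4-CD8-, 53 in all and 59 in Foxp3+ CD4 T cells, 1503 genes differed between CD4 and CD4-CD8- T cells, and the treatment effect differed in 103 genes between CD4 and CD8 and in 7 between Foxp3+ and Foxp3- cells. DESeq2 gave 18, 2, 10, 21 and 2 genes for the same treatment comparisons and 7 for CD4 against CD8. With at least 3 Cd3 UMIs or with doublets kept, 0 genes were called in CD4-CD8- T cells and 2 for the effect in CD4 against CD8 T cells, and with mixed T cells kept or cells called by UMI total alone, 0 in CD4-CD8- T cells.

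Without 1 mouse at a time, 0 to 1 genes were called for treatment in CD4, CD8 and Foxp3+ CD4 T cells, 0 to 10 in all T cells (10 without IgG1 replicate 2), 0 to 92 in CD4-CD8- T cells (92 without IgG1 replicate 2), 0 to 6 for the effect in CD4 against CD8 T cells, 0 to 5 in Foxp3+ against Foxp3- cells and 530 to 1021 between Foxp3+ and Foxp3- cells. The pairs of a member and cell type without overlap numbered 15 to 25, the 25 without IgG1 replicate 2, a count that leaving out a mouse cannot lower. That alternative and the co-detection alternatives were chosen after seeing the data. The difference in the share of CD4 T cells with Foxp3 ran from 2.34 to 3.55 percentage points.

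Signs that turned were those of uncalled values. Leaving out 1 mouse, the log2 fold change for treatment in CD8 T cells ran from -1.31 to 0.45 for Il2ra, -0.0711 to 0.35 for Ikzf2, -0.28 to 0.35 for Tnfrsf9 and -0.21 to 0.13 for Izumo1r. It ran from -0.17 to 0.19 for Izumo1r in CD4-CD8- T cells, from -0.18 to 0.0352 in all T cells, and in Foxp3+ CD4 T cells from -0.0577 to 0.82 for Ikzf2 and -0.0382 to 0.11 for Foxp3. Ikzf2 ran from -0.29 to 0.0206 between CD4 and CD4-CD8- T cells. The CD4 minus CD8 effect ran from -0.17 to 0.51 for Ikzf2 and -0.68 to 0.27 for Tnfrsf4, and the Foxp3+ minus Foxp3- effect from -0.0849 to 1.31 for Ikzf2, -0.26 to 1.19 for Il2ra, -0.55 to 0.96 for Tnfrsf4 and -0.24 to 0.21 for Izumo1r. With mixed T cells kept, Foxp3 was at -0.10 in Foxp3+ cells, and the Foxp3+ minus Foxp3- effect at -0.0668 for Tnfrsf4 and -0.0786 for Izumo1r, which DESeq2 put at -0.0142.

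With the replicate number as a block, 1 gene was called in CD4, 1 in CD8, 4 in CD4-CD8- and 1 in all T cells, 0 in Foxp3+ CD4 T cells, 0 for the effect in CD4 against CD8 and 4 in Foxp3+ against Foxp3- cells. No call of a member changed under the block, and the Foxp3 share had an exact sign-flip p of 0.25, the smallest that 3 pairs allow. Deviations of same-numbered mice in T cells correlated at 0.061, -0.013 and -0.109, so the mice share only a number. Foxp3 rested on 8 to 25 positive CD4 T cells per mouse, which limits its precision.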
